A study of Mus musculus with 8 samples.

Results

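The genes described here encode 10 enzymes of serine synthesis and of the folate one-carbon cycle: Phgdh, Psat1, Psph, Shmt1, Shmt2, Mthfd1, Mthfd1l, Mthfd2, Gcsh and Asns. They were taken by gene symbol from a table of 23846 gene entries, each of the 10 symbols having 1 entry, and all 10 passed the expression filter that left 12629 entries for testing. RNA-seq libraries were made from whole hearts of mouse embryos at embryonic day 11.5, 4 from cardiomyocyte-specific Ogt knockout hearts (cKO) and 4 from littermate control hearts. Ogt is X-linked and encodes the enzyme that attaches O-GlcNAc to proteins, and the cKO embryos were males with a floxed Ogt allele and a Cre transgene driven by the cardiac Troponin T promoter (TnT-Cre). The sample titles call the control embryos OGTWT, while their exact floxed and Cre genotype and their sex are not given. The sample labels name the B6 strain, while the methods of the study describe a mixed background of 129/SvJ and C57BL/6J. Cre was driven in cardiomyocytes, so that other cells of the same hearts were not targeted, and nothing states if a library held 1 heart or several. Values are FPKM, the number of fragments scaled to transcript length and library size, as the authors deposited them. Because bulk tissue was sequenced, fewer cells of a type and less RNA per cell cannot be told apart. Since nothing says that the libraries of a group came from separate hearts, p-values measure only the spread between these libraries.

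Serine is made from a glycolytic intermediate in successive steps. Phgdh oxidizes phosphoglycerate, Psat1 transfers an amino group from glutamate, and Psph removes the phosphate. The SHMT enzymes then split serine into glycine and a one-carbon unit that is carried by folate, Shmt1 in the cytosol and Shmt2 in mitochondria. The MTHFD enzymes interconvert the folate-bound one-carbon units, Mthfd1 in the cytosol, and Mthfd2 and Mthfd1l in mitochondria. Growing embryonic tissue uses these units to make purines and thymidylate. Gcsh is the lipoyl-bearing H protein of the mitochondrial glycine cleavage system, which supplies one-carbon units from glycine. Asns makes asparagine from aspartate and is, like Phgdh, Psat1, Shmt2 and Mthfd2, a known target of the stress-responsive transcription factor ATF4.

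Of the 10 enzymes, 4 were lower in cKO hearts (Gcsh, Psat1, Shmt1 and Mthfd2), 1 was higher (Mthfd1) and 5 did not pass the test. The bases just before the transcription start are printed for these 5 and for Asns, as the promoter stretches of the genes that differed and of a textbook amino acid response gene. They are RefSeq sequences of build GRCm38.p6, read along the gene from 5′ to 3′, 100 bases each and ending at the base before the start site that RefSeq gives, which for Gcsh and Asns lies upstream of the gene end in the deposited table. Capitals mark CCAAT or its reverse complement ATTGG (the CCAAT box) and, in Asns, a match to TGATGNAA, the core of the amino acid response element.
Gcsh (chr8:116993499-116993598, minus strand): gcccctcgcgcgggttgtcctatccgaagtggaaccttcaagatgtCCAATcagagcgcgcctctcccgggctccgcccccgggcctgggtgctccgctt
Psat1 (chr19:15925060-15925159, minus strand): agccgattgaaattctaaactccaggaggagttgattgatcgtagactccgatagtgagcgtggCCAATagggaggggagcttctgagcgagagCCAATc
Shmt1 (chr11:60811266-60811365, minus strand): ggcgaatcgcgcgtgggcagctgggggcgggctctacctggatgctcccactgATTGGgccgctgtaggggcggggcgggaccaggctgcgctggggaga
Mthfd2 (chr6:83317605-83317704, minus strand): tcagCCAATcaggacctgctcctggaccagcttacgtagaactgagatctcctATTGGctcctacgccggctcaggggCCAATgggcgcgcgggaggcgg
Mthfd1 (chr12:76255132-76255231, plus strand): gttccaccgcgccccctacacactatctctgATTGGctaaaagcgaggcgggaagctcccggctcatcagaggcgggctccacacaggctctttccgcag
Asns (chr6:7693210-7693309, minus strand): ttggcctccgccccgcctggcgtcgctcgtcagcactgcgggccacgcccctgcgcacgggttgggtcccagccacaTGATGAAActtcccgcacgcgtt

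Each of the 4 enzymes that were lower carried a CCAAT box in this stretch, and so did Mthfd1, which was higher. Mthfd2 had 3 CCAAT matches and Psat1 had 2. The box was not confined to enzymes that passed the test. Phgdh and Psph, which did not pass and are not printed, also carried it within a stretch of the same length. Counted from the start, the matches lay at -23 to -19 in Phgdh and at -78 to -74 and -48 to -44 in Psph. The share of all promoters with a match was counted over 250 bases only, not over the shorter stretch. All 10 symbols matched the promoter table. In the 250 bases before the start, searched on both strands, CCAAT occurred in 7 of the 10 genes and in 33.8% of 32851 promoters of the same length. TGATGNAA occurred in Asns alone of the 10 and in 3.45% of all promoters. The SP1 site GGGCGG occurred in 7 of the 10 genes, against 32.7% of all promoters, and the E-box CACGTG in 0 of the 10, against 6.02%. A gene was counted if any of its promoters matched, whereas the percentages are of single promoters. Psat1 had 2 promoters, and its SP1 site lay in the one that is not printed. A match describes these letters and does not show that a factor binds there.

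Ogt itself was examined first. It had 41.6, 43.3, 37.5 and 46.2 FPKM in control libraries 1 to 4 and 20.1, 21.6, 24.7 and 21.5 FPKM in cKO libraries 1 to 4, and was lower by a log2 difference of -0.92 (standard error, SE, 0.08, limma adjusted p = 0.000149). Every log2 difference below is the mean of log2(FPKM + 0.5) in cKO minus that in control hearts. Genes counted as called where the limma p-value, adjusted by Benjamini-Hochberg over all 12629 entries tested, was under 0.05. By this rule 30.7% of all entries were called, 15.9% higher and 14.9% lower, and 5 of the 10 enzymes were called, 1 higher and 4 lower. The count of 5 was 3 without control library 1 or 2 or cKO library 2, 3 or 4, and 6 without cKO library 1. The 10 enzymes had a median log2 difference of -0.20, beside 0.02 over all entries tested. Because the enzymes were chosen with earlier results of these data known, this contrast is a description and was not tested. The control and cKO libraries did not overlap for 3 of the 10 (Gcsh, Psat1 and Mthfd1), against 32.8% of all entries (16.5% higher and 16.3% lower).

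**Figure D1:**
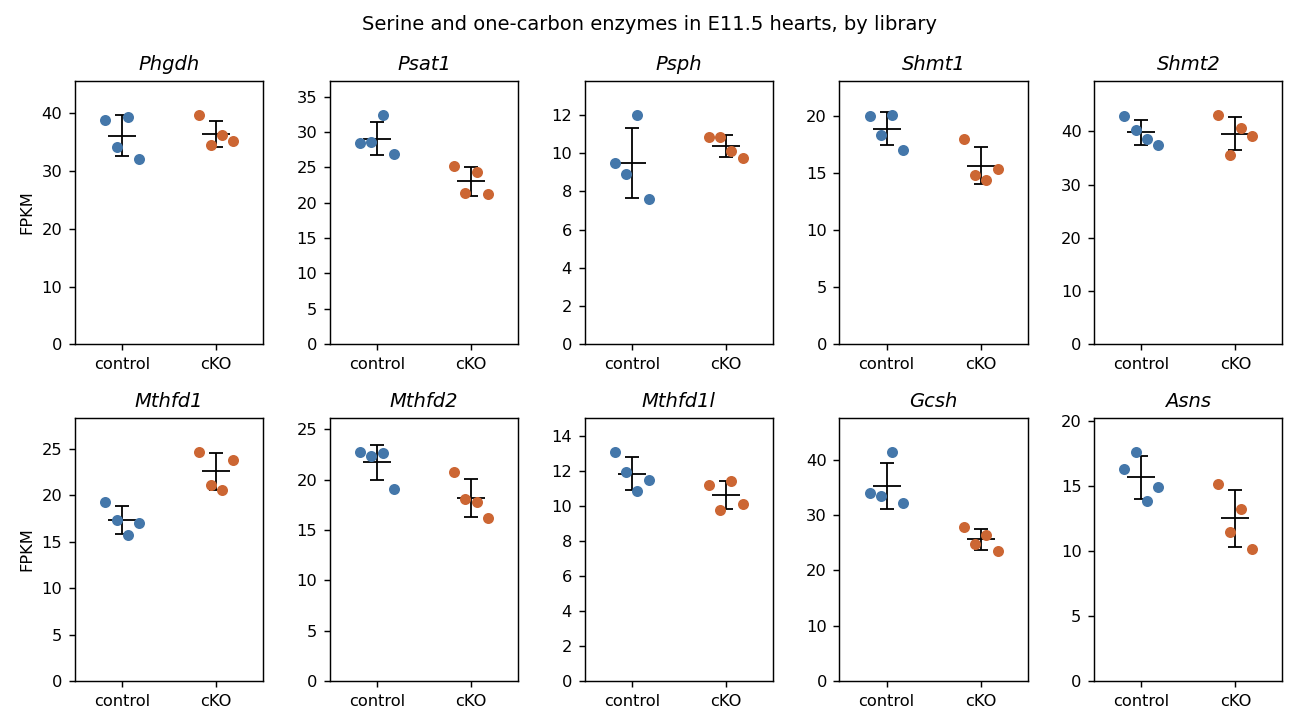
FPKM of each of the 10 enzymes (vertical axes from 0) in the 4 control and 4 cKO libraries, drawn as points in the order of the replicate numbers, with the mean and SD in black. Gcsh and Psat1 lay lower and Mthfd1 lay higher in all 4 cKO libraries than in all 4 control libraries, and the groups overlapped for the other 7.

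In serine synthesis, the middle enzyme fell while the first and last did not pass the test. Psat1 lies on chromosome 19 of mm10 from 15905123 to 15925059, and the main coding model of GENCODE has 9 exons. It had 28.4, 28.5, 32.4 and 26.8 FPKM in control libraries 1 to 4 and 25.2, 21.4, 24.3 and 21.2 FPKM in cKO libraries 1 to 4. No cKO library reached the lowest control. Psat1 was lower by a log2 difference of -0.33 (SE 0.08, limma adjusted p = 0.0124), from 29.0 ± 2.35 to 23.0 ± 2.03 FPKM (SD, n = 4). Within cKO libraries 2 to 4 and control libraries 3 and 4, which share a prefix in their descriptions, its difference was -0.40 and it was not called (limma adjusted p = 0.0688). The processed pseudogene Gm12611 resembles Psat1 over 1056 bases at 91.0% identity and has no entry of its own.

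Phgdh, which commits the pathway to serine, was 36.1 ± 3.51 FPKM in control and 36.4 ± 2.28 FPKM in cKO hearts (SD, n = 4). It lies on chromosome 3 from 98313171 to 98339969 and has 12 exons. Its values were 38.8, 34.2, 39.4 and 32.2 FPKM in control libraries 1 to 4 and 39.7, 34.6, 36.3 and 35.1 FPKM in cKO libraries 1 to 4. The groups overlapped, and the log2 difference was 0.01 with a 95% interval from -0.16 to 0.19 (limma adjusted p = 0.911), and its sign changed in 4 of 20 alternatives. Of 21 other annotated genes whose transcripts resemble Phgdh over at least 100 bases, 17 are processed pseudogenes, with up to 98.7% identity, and 3 of the 21 have an entry of their own in the table. Among these, the pseudogenes Gm8096 and Gm6756 did not exceed 0.737 FPKM in any library. How the authors divided reads between such copies is not stated, so the level of Phgdh is uncertain.

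Psph, the phosphatase of the last step, had 9.47, 8.89, 12.0 and 7.59 FPKM in control libraries 1 to 4 and 10.8, 10.9, 10.1 and 9.73 FPKM in cKO libraries 1 to 4. All 4 cKO libraries lay within the range of the controls. Its log2 difference was 0.14 (95% interval -0.12 to 0.41, limma adjusted p = 0.396). Without control library 3, its highest value, Psph was at 0.25 and passed (limma adjusted p = 0.0342). Psph lies on chromosome 5 from 129765558 to 129787253 with 8 exons. It shares 452 identical bases with a transcript of Cct6a, a chaperonin subunit on the opposite strand that had 167 to 199 FPKM in these libraries, and strand use in the counting is not stated, so the level of Psph is uncertain too.

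The serine hydroxymethyltransferases differed from each other. Shmt1, the cytosolic enzyme, lies on chromosome 11 from 60788897 to 60811265 and has 12 exons. Its control libraries 1 to 4 had 20.0, 18.4, 20.1 and 17.1 FPKM, and cKO libraries 1 to 4 had 17.99, 14.8, 14.4 and 15.4 FPKM. All cKO libraries but library 1 were below every control, and library 1 was above control library 4 alone. Shmt1 was lower by a log2 difference of -0.27 (SE 0.08, limma adjusted p = 0.0352). This call is fragile: it was lost in 8 of 20 alternatives (limma adjusted p 0.0619 to 0.0931), among them the removal of any of control libraries 1 to 3 or cKO libraries 2 to 4. Its log2 difference stayed between -0.33 and -0.23 over all 20. Shmt1 shares 184 identical bases with a transcript of Smcr8, which had 5.20 to 6.10 FPKM in control and 6.19 to 7.03 FPKM in cKO libraries. How reads of the shared bases were divided is not stated.

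Shmt2, the mitochondrial enzyme, was the most abundant of the 10 on the FPKM scale. It lies on chromosome 10 from 127517123 to 127522444 and also has 12 exons. It had 43.0, 40.3, 38.5 and 37.5 FPKM in control libraries 1 to 4 and 43.0, 35.6, 40.6 and 39.1 FPKM in cKO libraries 1 to 4. The groups overlapped, with cKO library 2 below every control and cKO library 1 level with the highest control. The log2 difference was -0.01, with a 95% interval from -0.17 to 0.14 (limma adjusted p = 0.923), and its sign changed in 4 of 20 alternatives. Ndufa4l2 overlaps Shmt2 on the opposite strand.

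Of the folate enzymes of the MTHFD family, the cytosolic one rose. Mthfd1 is a protein of several activities that interconverts folate one-carbon units in the cytosol. It lies on chromosome 12 from 76255232 to 76319820 and its longest coding transcript has 28 exons. It had 19.3, 17.3, 15.7 and 17.0 FPKM in control libraries 1 to 4 and 24.7, 21.2, 20.6 and 23.8 FPKM in cKO libraries 1 to 4. All cKO libraries were above all control libraries. Mthfd1 rose from 17.4 ± 1.48 to 22.6 ± 1.98 FPKM (SD, n = 4), a log2 difference of 0.37 (SE 0.08, limma adjusted p = 0.00815). It was called in all 20 alternatives, with a log2 difference of 0.33 to 0.42. Annotated non-coding genes, Gm34868 among them, overlap it on the opposite strand, and reads of such partners cannot be told apart without strand.

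Mthfd2, the mitochondrial dehydrogenase and cyclohydrolase that is high in embryos and proliferating cells, lies on chromosome 6 from 83305704 to 83317604 and has 8 exons. Control libraries 1 to 4 had 22.7, 22.4, 22.7 and 19.1 FPKM, and cKO libraries 1 to 4 had 20.7, 18.1, 17.8 and 16.2 FPKM. Only cKO library 1 and control library 4 made the groups overlap. Mthfd2 was lower by a log2 difference of -0.25 (SE 0.08, limma adjusted p = 0.0496), at the edge of the threshold. The call was lost in 10 of 20 alternatives (limma adjusted p 0.0501 to 0.13), among them the removal of any of control libraries 1 to 3 or cKO libraries 2 to 4.

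Mthfd1l, which releases formate in mitochondria, lies on chromosome 10 from 3973075 to 4167081 and has 28 exons. It had 13.1, 11.9, 10.9 and 11.5 FPKM in control libraries 1 to 4 and 11.2, 9.76, 11.4 and 10.1 FPKM in cKO libraries 1 to 4. The groups overlapped, and its log2 difference of -0.15 did not pass (95% interval -0.31 to 0.01, limma adjusted p = 0.141).

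**Figure D2:**
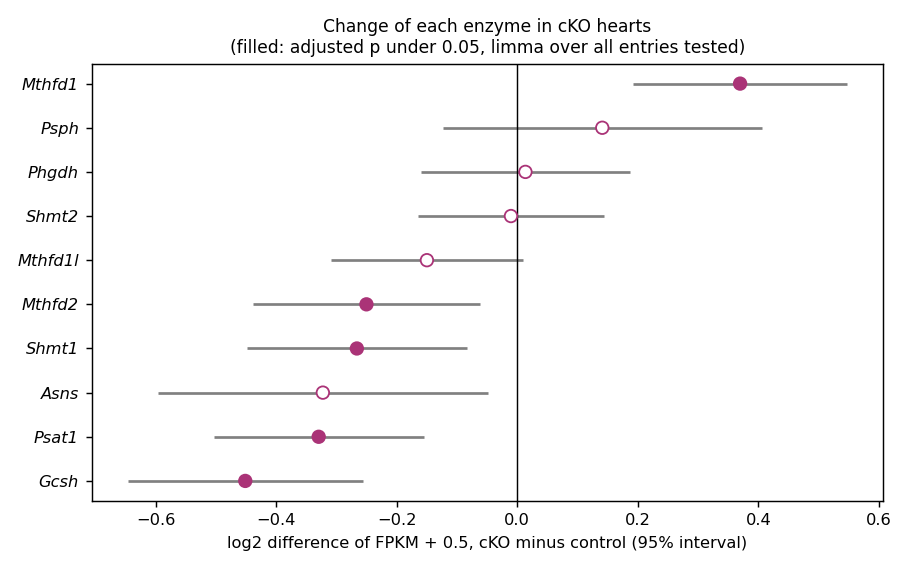
Log2 difference between cKO and control hearts for each of the 10 enzymes (horizontal axis, log2 of FPKM + 0.5), with unadjusted 95% intervals from limma as lines and filled points where the adjusted p was under 0.05. The points run from -0.45 for Gcsh to 0.37 for Mthfd1, and the intervals of Phgdh, Shmt2, Psph and Mthfd1l include 0.

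The glycine cleavage system held the largest decrease among the 10. Gcsh lies on chromosome 8 from 116981828 to 116993449 and has 5 exons. It had 34.1, 33.5, 41.4 and 32.1 FPKM in control libraries 1 to 4 and 27.8, 24.7, 26.4 and 23.5 FPKM in cKO libraries 1 to 4. Here too all cKO values were under all control values. Gcsh fell from 35.3 ± 4.16 to 25.6 ± 1.89 FPKM (SD, n = 4), a log2 difference of -0.45 (SE 0.09, limma adjusted p = 0.00517), and was called in all 20 alternatives. Of all entries tested, 4.17% had a lower log2 difference than Gcsh. Of 6 annotated genes with transcripts similar to Gcsh, 5 are processed pseudogenes, aligned over at most 523 bases and with up to 97.1% identity. Only 1 of the 6, Cysltr2, has an entry of its own. How reads were divided between such copies is not stated, so the level of Gcsh is uncertain too.

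Among 6 genes that act with Gcsh or attach its lipoyl group, 1 was lower and 1 was higher (2 and 2 without control library 3), and their median was -0.07 on the log2 scale. Amt, the aminomethyltransferase that passes the one-carbon unit from the H protein to folate, had 9.91, 11.1, 11.3 and 12.0 FPKM in control libraries 1 to 4 and 5.53, 5.06, 7.20 and 5.07 FPKM in cKO libraries 1 to 4. The highest cKO value of Amt was under its lowest control value. Amt was lower by a log2 difference of -0.91 (SE 0.11, limma adjusted p = 0.000574), more than any of the 10 enzymes. Lias, the lipoyl synthase that makes the cofactor of the H protein, rose from 20.6 to 26.3 FPKM on average (log2 difference 0.34, SE 0.06, limma adjusted p = 0.00321). Gldc, the glycine decarboxylase, was at -0.24 and did not pass (limma adjusted p = 0.111), nor did the lipoylation genes Lipt1 and Lipt2 or the shared dehydrogenase Dld.

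Asns, the asparagine synthetase, had a wide spread. It lies on chromosome 6 from 7675171 to 7693182 and has 12 exons. Control libraries 1 to 4 had 16.3, 17.6, 13.8 and 14.9 FPKM, and cKO libraries 1 to 4 had 15.2, 11.5, 13.2 and 10.2 FPKM. The groups overlapped because cKO library 1 was above control libraries 3 and 4. The log2 difference was -0.32 (SE 0.12) and did not pass (limma adjusted p = 0.0733). Without cKO library 1 or control library 3, or with weights for the libraries, it passed (limma adjusted p 0.00306 to 0.0493).

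Ratios of enzyme pairs within a library depend little on the scaling of that library and compare how far each member of a pair changed. All 3 pairs examined shifted between the groups without overlap (exact two-sided permutation test over 70 splits, p = 0.0286, the smallest that 4 libraries against 4 allow, and 0.0286 adjusted over the 3 pairs). Each pair holds a gene already called above, and the ratios use the same values, so they restate those results and add no separate evidence. How often other gene pairs shift without overlap was not examined. The log2 ratio of mitochondrial Shmt2 to cytosolic Shmt1 was 1.06 ± 0.09 in control and 1.31 ± 0.11 in cKO hearts (SD, n = 4). The log2 ratio of mitochondrial Mthfd2 to cytosolic Mthfd1 was 0.32 ± 0.15 in control and -0.30 ± 0.16 in cKO hearts, so Mthfd2 was the higher of the pair in all 4 control libraries and Mthfd1 in all 4 cKO libraries. The log2 ratio of Psat1 to Phgdh, the second and the first step of serine synthesis, was -0.31 ± 0.09 in control and -0.65 ± 0.06 in cKO hearts. The Shmt pair moved toward the mitochondrial enzyme, with Shmt1 at a log2 difference of -0.27 and Shmt2 nearly level at -0.01. The Mthfd pair moved toward the cytosolic enzyme, with Mthfd2 at -0.25 and Mthfd1 at 0.37. The calls of Shmt1 and Mthfd2 were lost in 8 and 10 of 20 alternatives. The ratio with Phgdh carries the uncertainty of its pseudogenes, and the similar transcripts of Psat1 and Shmt1 bear on their ratios too.

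**Figure D3:**
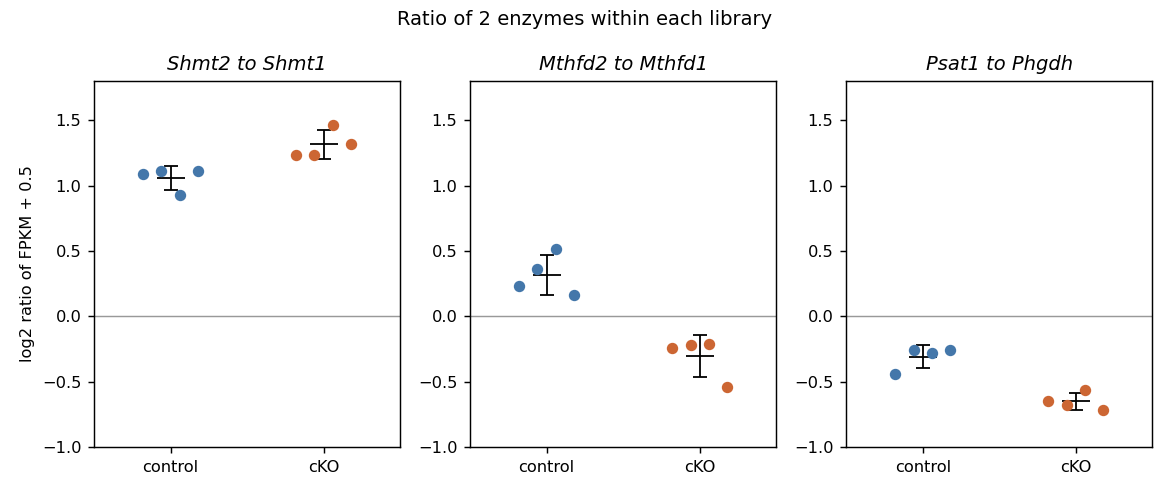
Log2 ratio of FPKM + 0.5 (vertical axis) for 3 enzyme pairs in each of the 4 control and 4 cKO libraries (points), with the mean and SD in black. The Mthfd2 to Mthfd1 ratio lay above 0 in all 4 control libraries and below 0 in all 4 cKO libraries, the largest shift of the 3 pairs at -0.62.

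The order of the levels changed only in its middle. On the FPKM scale, which is per transcript length, Shmt2 was first with a mean of 39.8 FPKM in control and 39.6 FPKM in cKO hearts, followed by Phgdh. Gcsh, next in both groups, overlapped with Phgdh in control hearts at 35.3 FPKM and stood below it without overlap in cKO hearts at 25.6 FPKM. Mthfd1 ranked 7 of 10 in control hearts and 5 of 10 in cKO hearts, where it overlapped with Psat1. Asns, Mthfd1l and Psph were the last of the 10 in both groups, with means of 9.48 to 15.7 FPKM in control and 10.4 to 12.5 FPKM in cKO hearts. In the cKO order, the only neighbors without overlap were Phgdh and Gcsh, and in the control order Psat1 and Mthfd2, and Asns and Mthfd1l.

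The enzymes also shared a pattern among libraries that included those with no called difference. Within the cKO group, library 1 had the highest value of 8 of the 10 enzymes, whereas it was highest for 35.2% of all entries tested. Its median deviation from the group mean was 0.13 on the log2 scale for the 10 enzymes and 0.02 for all entries. Among the controls, library 4 was lowest for 7 of the 10, against 36.5% of all entries. Control library 3 was highest for 5 of the 10 and lowest for 3, against 46.8% and 26.9% of all entries. The descriptions of cKO library 1 and control libraries 1 and 2 carry a prefix that differs from that of the other 5 libraries, and its meaning is not stated. Sample titles and the columns of the deposited table give 1 and the same prefix to all 8 libraries, so these sources conflict, and what the prefix in the descriptions marks is unknown. With the prefix as a covariate, Gcsh, Psat1, Shmt1 and Mthfd1 were called and Mthfd2 was not. Between cKO library 1 and control libraries 1 and 2 the log2 differences were -0.28 for Gcsh, -0.18 for Psat1, -0.09 for Shmt1, -0.12 for Mthfd2 and 0.42 for Mthfd1. Between the other 3 cKO and 2 control libraries they were -0.54, -0.40, -0.31, -0.26 and 0.40 in the same order.

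**Figure D4:**
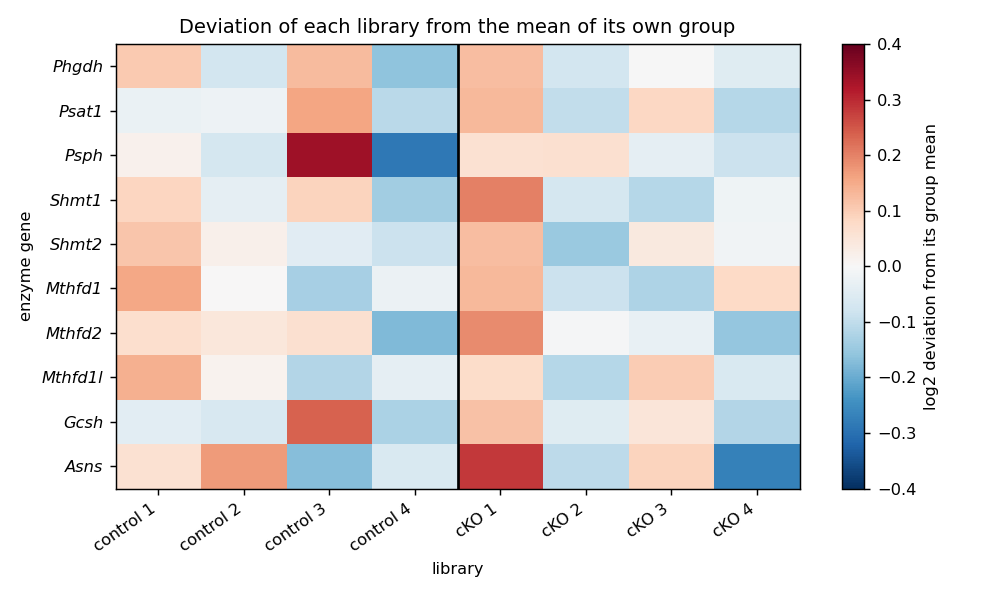
Deviation of each library from the mean of its own group, in log2(FPKM + 0.5), for the 10 enzymes (rows) in 4 control and 4 cKO libraries (columns), red where above and blue where below the group mean. The column of cKO library 1 is red for all 10 enzymes, and that of control library 4 is blue for all 10.

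Markers of other cell types were summed to show what else differed between the hearts. The 11 cardiomyocyte markers summed to 11520 to 14260 FPKM in control and 12350 to 13920 FPKM in cKO hearts, and 0 of them were called by limma (0 at an unadjusted p under 0.05), the 2 groups overlapping. The 9 endothelial markers summed to 270 to 307 FPKM in control and 244 to 262 FPKM in cKO hearts, with 5 lower. The 8 epicardial markers summed to 181 to 197 FPKM in control and 226 to 262 FPKM in cKO hearts, with 5 higher. The 8 mesenchymal markers summed to 338 to 427 FPKM in control and 371 to 480 FPKM in cKO hearts, the groups overlapping. Of these, 1 was called higher by limma (3 at an unadjusted p under 0.05), with a median log2 difference of 0.24. Beside these marker counts, 15.9% of all entries were called higher and 14.9% lower. Blood content varied widely, with erythroid markers at 17570 to 69370 FPKM in control and 36370 to 53980 FPKM in cKO hearts. Fetal liver markers summed to 60.8 FPKM in cKO library 3 and to 3.21 to 4.24 FPKM in the other 7 libraries. The 8 leukocyte markers summed to 35.9 to 59.0 FPKM in control and 38.9 to 46.4 FPKM in cKO hearts. The part of these cell types in the results above was not tested. Without cKO library 3, Gcsh, Psat1 and Mthfd1 were called and Shmt1 and Mthfd2 were not, and with haemoglobin genes removed all 5 were called.

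The counts of the related gene lists below are to be read beside the 15.9% higher and 14.9% lower of all entries. Of 17 tested genes of folate handling other than the 10 enzymes, 6 were higher and 3 were lower, with a median log2 difference of 0.06. The 6 became 1 without cKO library 2, 3 without cKO library 4, and 3 where an average of 5 FPKM was required. Aldh1l1, which oxidizes formyl folate in the cytosol, was under the expression filter and not tested, at 0.615, 0.562, 0.445 and 0.659 FPKM in control libraries 1 to 4 and 1.40, 1.31, 1.18 and 1.60 FPKM in cKO libraries 1 to 4. Ggh, the lysosomal hydrolase that trims the glutamate tail of folates, had 12.0, 11.6, 14.8 and 11.8 FPKM in control libraries 1 to 4 and 7.00, 7.28, 6.74 and 6.90 FPKM in cKO libraries 1 to 4. Ggh was lower by a log2 difference of -0.80 (SE 0.08, limma adjusted p = 0.000237). Sfxn1, which carries serine into mitochondria, had 13.3, 12.6, 12.0 and 12.4 FPKM in control libraries 1 to 4 and 16.6, 16.4, 17.0 and 16.7 FPKM in cKO libraries 1 to 4. The cKO libraries were tightly grouped above the controls for Sfxn1, which rose by a log2 difference of 0.39 (SE 0.04, limma adjusted p = 0.000387). Sardh, the mitochondrial sarcosine dehydrogenase, fell from 5.75 to 4.63 FPKM on average (limma adjusted p = 0.0149). Tyms, the thymidylate synthase, rose from 17.2 to 19.4 FPKM on average (limma adjusted p = 0.016), but was not called without cKO library 2 or without haemoglobin genes (adjusted p 0.0527 to 0.123 over the alternatives in which it was lost). Mthfd2l, the mitochondrial paralog of Mthfd2, was at -0.17 and did not pass (limma adjusted p = 0.137).

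Of 18 genes of purine and thymidylate synthesis, which consume folate one-carbon units, 5 were higher and 2 were lower, 1 of the latter being Shmt1. Tyms, already counted among the genes of folate handling, was 1 of the 5 that were higher. With no filter 2 were higher and 1 was lower, and 1 to 3 were higher when any library other than control library 3 was left out. Ppat, the amidotransferase that opens purine synthesis, had 15.4, 13.9, 17.0 and 15.5 FPKM in control libraries 1 to 4 and 21.5, 20.7, 19.2 and 20.7 FPKM in cKO libraries 1 to 4. All cKO libraries exceeded all controls, and Ppat rose by a log2 difference of 0.40 (SE 0.06, limma adjusted p = 0.00234). Impdh1, of guanine nucleotide synthesis, fell from 18.2 to 15.6 FPKM on average (limma adjusted p = 0.0164) and was not called without control library 2, without cKO library 2 or with haemoglobin genes removed. Adss, of adenine nucleotide synthesis, rose from 22.1 to 25.2 FPKM on average (limma adjusted p = 0.0323) but was lost when any library other than control library 3 was left out. The median of the 18 genes was -0.002 on the log2 scale.

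Of 8 tested genes of the methionine cycle and transsulfuration, 1 was higher and 1 was lower (2 lower without control library 3). The higher was Ahcyl2 (log2 difference 0.24) and the lower Ahcyl1 (log2 difference -0.19), both relatives of the homocysteine-forming hydrolase Ahcy (adjusted p = 0.0067 and 0.00806 from limma). The other 6 tested genes of this list, Ahcy itself among them, were not called with all libraries. Of 16 tested genes of serine use and transport, 3 were higher and 0 were lower by limma (2 lower at an unadjusted p under 0.05). The 3 became 1 without control library 1 or 2 or without cKO library 2, 3 or 4. Srr, the serine racemase, rose from 13.6 to 16.6 FPKM on average (limma adjusted p = 0.00417). The calls of the amino acid transporter Slc38a2 and of the phosphatidylserine synthase Ptdss1 (adjusted p = 0.0389 and 0.0488 from limma) were lost in 11 and 12 of 20 alternatives, for both genes among them the removal of control library 1 or 2 or of cKO library 2, 3 or 4.

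Around Asns, a list of 12 tested genes of aspartate, glutamate and asparagine held larger differences than that of Asns, and 4 were higher and 2 were lower. The 4 became 2 without control library 2 or cKO library 2. Got1, the cytosolic aspartate aminotransferase, had 89.2, 80.7, 87.3 and 81.2 FPKM in control libraries 1 to 4 and 56.4, 48.1, 49.8 and 50.5 FPKM in cKO libraries 1 to 4. Got1 was lower by a log2 difference of -0.72 (SE 0.06, limma adjusted p = 0.000149). Asrgl1, which cleaves asparagine, rose from 6.30 to 10.95 FPKM on average (log2 difference 0.75, SE 0.07, limma adjusted p = 0.000195). Glul, the glutamine synthetase, rose from 30.8 to 40.7 FPKM on average (log2 difference 0.39, limma adjusted p = 0.000264). Slc25a12, the mitochondrial aspartate and glutamate carrier, fell from 36.3 to 26.4 FPKM on average (log2 difference -0.45, limma adjusted p = 0.000558). In each of these 4 genes the groups did not overlap.

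The list of ATF4 and other amino acid response genes, with 21 tested, had 4 lower, beside 14.9% of all entries, and 0 higher by limma (2 higher at an unadjusted p under 0.05). The 0 became 3 without control library 3, 6 with array weights, and 1 with no filter, with haemoglobin genes removed or with a replicate block. The 4 were Pycr1, a proline synthesis enzyme (log2 difference -0.59, limma adjusted p = 0.000959), Eif2ak4, the amino acid sensing kinase GCN2 (log2 difference -0.56, adjusted p = 0.00186), Pck2, the mitochondrial phosphoenolpyruvate carboxykinase (log2 difference -0.35, adjusted p = 0.00304), and Slc7a5, a transporter of large neutral amino acids (log2 difference -0.43, adjusted p = 0.00312). The groups did not overlap for any of the 4. The median of the list was -0.01 on the log2 scale, beside 0.02 over all entries. Chac1, Fgf21, Gdf15 and Nupr1 were under the expression filter and were not tested. Gdf15, a stress-induced secreted factor, had 0.321, 0.373, 0.453 and 0.617 FPKM in control libraries 1 to 4 and 1.24, 1.08, 0.912 and 1.24 FPKM in cKO libraries 1 to 4, all cKO values above all control values, and it was the 1 gene called higher with no filter.

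**Figure D5:**
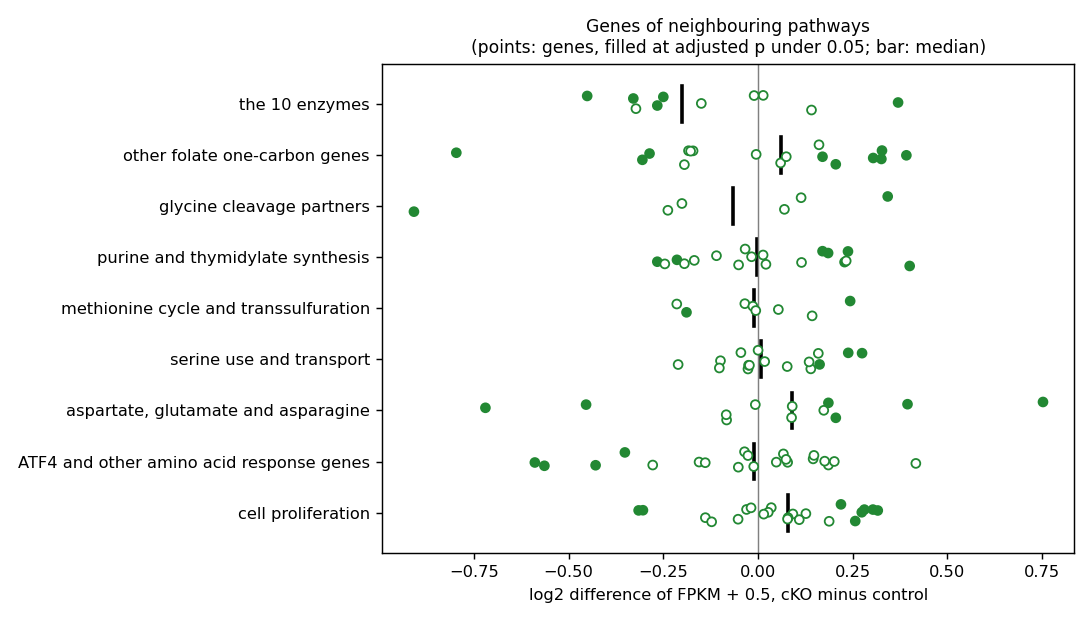
Log2 difference between cKO and control hearts (horizontal axis, log2 of FPKM + 0.5) for the 10 enzymes and for genes of 8 related lists (rows), each point 1 gene, filled where the adjusted p from limma was under 0.05, with the median as a bar. The median of the 10 enzymes lay at -0.20, and those of the other lists lay between -0.07 and 0.09. Enzymes and lists were chosen with earlier results of these data known, so the medians are descriptive.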

How the data were processed

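Whole hearts at embryonic day 11.5 were profiled by stranded mRNA sequencing, 4 control and 4 cKO libraries. Per the submitters' processing notes, TopHat2 and Bowtie2 were used with mm10. The table deposited by the authors gives FPKM for 23846 gene entries. Tool versions, annotation and read depth are not given in the sources used here, and precision rests on the spread among 4 libraries. Of its cells, 1.32% hold a text code in place of a value. A column of the authors' own p-values was not used.

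Of 23521 entries numeric throughout, the 12629 averaging 1 FPKM or more were kept, and log2(FPKM + 0.5) was fitted by limma 3.58.1 in R 4.3.3 (2 group means, variance trend, Benjamini-Hochberg). The study used Cuffdiff2 on reads, which cannot be rerun on FPKM. Deposited starts count from 0 and are printed counting from 1. Gene models were GENCODE M21, similar transcripts came from blastn 2.17.0 (at least 90% identity over 100 bases), and figures were drawn with matplotlib 3.10.9.

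Alternatives were pseudocounts of 0.1 and 1, no filter or one at an average of 5 FPKM, quantile and median of ratios scaling, removal of haemoglobin genes with rescaling, no variance trend, array weights, a replicate block, the prefix in the sample descriptions as covariate or 1 prefix alone, and leaving out each library. The members and lists were chosen with earlier results of these data known. Named are all 10 enzymes and Ogt, up to 4 called genes of smallest adjusted p from each list (or 2 of highest mean where none was called), and the 5 genes nearest to the member of smallest adjusted p. Gldc, Lipt1, Lipt2, Dld, Mthfd2l, Mcm2, Mcm3, Mcm5, Mcm7, Aldh1l1, the 4 untested response genes and the similar or overlapping genes of the enzymes were named after their values were seen.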

Additional observations from a re-analysis of the deposited data

Results flagged for a closer look

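Among 22 groups of 4 libraries (the 10 enzymes and Ogt in each group), 1 value stood apart from the others of its group. Control library 4 had 19.1 FPKM of Mthfd2, while the other 3 control libraries had 22.4 to 22.7 FPKM, so that the gap to the nearest was 0.895 of the group's range. Chance marks about 1 in 20 such groups.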

How the results depend on the processing

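Over 20 alternatives, 2 named genes changed sign, and neither was called in any. Phgdh (0.013 on the log2 scale with all libraries) was at -0.0109 with 1 prefix alone and between -0.0402 and 0.0559 when each library was left out (below 0 without control library 2 or 4 or cKO library 1). Shmt2 (-0.011 with all libraries) was at 0.0256 with the prefix as covariate, at 0.0135 with 1 prefix alone, and between -0.0514 and 0.0388 when each library was left out (above 0 without control library 1 or cKO library 2). Gcsh and Mthfd1 were called in all 20 and Psat1 in 19. With no filter on low values 3 enzymes were called, 2 of them lower. With array weights 6582 genes were called in place of 3879, 8 enzymes (2 higher, Mthfd1 and Psph) and 70 list genes in place of 40. With 1 prefix alone (3 cKO and 2 control libraries) 1465 genes, 2 enzymes (1 lower) and 16 list genes were called, on fewer samples. There the pair ratios shifted by 0.32 (Shmt), -0.66 (Mthfd) and -0.39 (Psat1 to Phgdh), each at an adjusted p of 0.1 (exact permutation test), the smallest 3 against 2 can give. Leaving out each library gave 2650 to 4951 genes, 3 to 6 enzymes (2 to 5 lower, 1 to 2 higher), 25 to 53 list genes, Ogt at -0.98 to -0.88, and ratios of 0.20 to 0.28, -0.67 to -0.54 and -0.39 to -0.32. The enzymes called were 3 without control library 1 or 2 or cKO library 2, 3 or 4. The cause of these losses was not tested.

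Same-numbered libraries deviated together weakly or not at all (correlations over 12629 genes of 0.13, 0.16, -0.01 and 0.01 for numbers 1 to 4). Control libraries 1 and 2 each correlated best with the cKO library of the same number, and control libraries 3 and 4 did not. Nothing states if the numbers mark pairs. With the replicate block the same count of 5 enzymes was called (4 lower, 1 higher). The pair ratios shifted by 0.26, -0.62 and -0.34 by a paired exact sign-flip test (p = 0.125, the smallest that 4 pairs allow). Read depth was not used here, so the precision of each library is unknown.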

Other observations

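The genes whose pattern over the 8 libraries was nearest to that of Gcsh, by root mean square difference of centred log2 values, were Timm13, Mrpl27, Thyn1, Ogfod3 and Oat (0.03 to 0.04 log2 units). Timm13, a chaperone of mitochondrial protein import, had 52.8, 50.1, 62.7 and 48.4 FPKM in control libraries 1 to 4 and 40.5, 38.4, 40.1 and 35.9 FPKM in cKO libraries 1 to 4. Mrpl27 encodes a mitochondrial ribosomal protein and Oat the mitochondrial ornithine aminotransferase. Thyn1 and Ogfod3 were both nearer to Gcsh than Oat was, and whether the 5 genes share a function was not tested. In all 5, control library 3 was the highest and every cKO library lay below every control library, as for Gcsh. They were chosen for this likeness, so their direction is a description and was not tested again.

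Of 22 genes of cell proliferation, 6 were higher and 2 were lower, with a median log2 difference of 0.08. The 6 subunits of the replicative helicase differed in direction. Mcm4 and Mcm6 fell by 0.32 and 0.30 on the log2 scale (adjusted p = 0.00403 and 0.00746 from limma), Mcm2 was higher at 0.27 (limma adjusted p = 0.0157), and Mcm3, Mcm5 and Mcm7 did not pass at -0.14, 0.03 and 0.08. Cdk1, the mitotic kinase, rose from 56.8 to 70.7 FPKM on average (adjusted p = 0.00934) and the transcription factor Myc from a mean of 7.28 to 8.81 FPKM (adjusted p = 0.00803). The 22 genes summed to 1324 to 1459 FPKM in control and 1366 to 1536 FPKM in cKO hearts, with the highest sum in cKO library 1, in which 8 of the 10 enzymes were also highest within the cKO group. The part of proliferation in the levels of the enzymes was not tested.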
